A study of Mus musculus with 24 samples.

Results

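Sertoli cells are the supporting cells of the testis, and the 8 genes described here, *Ptgds*, *Cst9*, *Aard*, *Mro*, *Vnn1*, *Col9a3*, *Erbb4* and *Nedd9*, are known as products of the fetal Sertoli cell rather than as switches of sex determination. They were taken by name out of 22367 protein-coding genes of the GENCODE M1 annotation, by a rule that uses no value of these data, although earlier results of these data were known when they were listed. H3K4me3 and H3K27me3 were mapped by native ChIP-seq in FACS-purified mouse gonadal cells of a C57BL/6 x CD1 background, with H3 ChIP as input. The 4 populations were XY and XX progenitor cells sorted from E10.5 SF1-eGFP gonads (labelled male and female), Sertoli cells sorted from E13.5 male Sox9-CFP gonads, and the cells sorted from E13.5 female TESM-CFP gonads, which the labels call granulosa cells and which are called pregranulosa cells here. The TESM reporter is a mutated form of the *Sox9* enhancer TESCO, so each population was defined by a fluorescent transgene and not by an endogenous protein. Each replicate held 30000 to 100000 sorted cells pooled from several embryos.

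The 24 samples were 2 replicates of each of 3 ChIPs in each population, but the data used were 8 peak lists, 1 for each mark and population, which the series says were made from both replicates. No spread between replicates exists in these lists, so each difference below is a difference between 2 lists with no test and no p-value. A list gives where enriched regions lie and how wide they are, and not how strong the enrichment was. From sorted bulk cells, a region present in fewer cells and a region weaker in every cell cannot be told apart. The depth differed among lists. For H3K4me3 it was 10162534 tags in XY progenitors, 49254553 in XX progenitors and 31104760 in Sertoli cells, and for H3K27me3 it was 6470151, 33185400 and 44446456 tags in the same order. The pregranulosa lists carry no depth.

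Trimethylation of histone H3 at lysine 4 is laid down at the starts of active genes and of genes ready for activation, and trimethylation at lysine 27 is the silencing mark of the Polycomb group. A promoter that carries both is called bivalent, a state common at developmental regulators with CpG-rich promoters in cells that have not yet chosen a fate. Genes that encode the late, secreted or structural products of a cell type often have CpG-poor promoters, which Polycomb complexes bind less. H3K4me3 that spreads from the start into the gene is known from highly transcribed genes and genes of cell identity.

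The members have different trades. *Ptgds* encodes the lipocalin-type prostaglandin D2 synthase, whose product acts on neighbouring Sertoli cells. *Cst9* encodes testatin, a secreted cystatin-like protein. *Aard* encodes a small alanine- and arginine-rich protein, and *Mro* encodes maestro, a nuclear protein found in the fetal testis. *Vnn1* encodes vanin 1, a membrane-bound pantetheinase. *Col9a3* encodes a chain of collagen IX. *Erbb4* encodes a receptor tyrosine kinase for neuregulins, and *Nedd9* encodes a scaffold protein of the CAS family that acts in adhesion.

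The upstream sequence shows how unlike the promoters are. The following are the 250 bases immediately upstream of the annotated start, 5′ to 3′ on the strand of the gene, from the mm9 genome, with each CpG dinucleotide in capitals. *Ptgds* and *Cst9* are shown because their H3K4me3 was wide in Sertoli cells and narrow or absent elsewhere, with no H3K27me3 in any population, and *Col9a3* and *Erbb4* because they were the 2 members with H3K27me3 at the start. The positions are chr2:25325567-25325816 (minus strand) for *Ptgds*, chr2:148660633-148660882 (plus strand) for *Cst9*, chr2:180332245-180332494 (plus strand) for *Col9a3* and chr1:69154634-69154883 (minus strand) for *Erbb4*.
Ptgds: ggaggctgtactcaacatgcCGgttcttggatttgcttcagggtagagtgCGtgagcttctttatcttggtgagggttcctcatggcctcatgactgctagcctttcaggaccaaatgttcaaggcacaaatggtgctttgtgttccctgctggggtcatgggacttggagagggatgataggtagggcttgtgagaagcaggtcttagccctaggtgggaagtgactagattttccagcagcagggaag
Cst9: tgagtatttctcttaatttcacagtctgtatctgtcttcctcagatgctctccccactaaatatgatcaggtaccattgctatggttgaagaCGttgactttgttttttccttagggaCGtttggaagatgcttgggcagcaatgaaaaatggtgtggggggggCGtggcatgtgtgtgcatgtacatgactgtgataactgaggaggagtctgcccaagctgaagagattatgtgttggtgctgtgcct
Col9a3: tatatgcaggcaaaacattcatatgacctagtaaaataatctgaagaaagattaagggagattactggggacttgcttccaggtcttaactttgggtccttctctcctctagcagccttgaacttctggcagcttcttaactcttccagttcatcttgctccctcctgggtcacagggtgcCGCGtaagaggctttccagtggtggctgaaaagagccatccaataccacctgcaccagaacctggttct
Erbb4: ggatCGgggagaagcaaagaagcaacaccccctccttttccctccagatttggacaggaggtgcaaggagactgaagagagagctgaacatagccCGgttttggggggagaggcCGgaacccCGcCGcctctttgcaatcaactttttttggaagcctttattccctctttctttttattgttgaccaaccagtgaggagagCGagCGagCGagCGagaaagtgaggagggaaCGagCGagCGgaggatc
The *Ptgds* stretch holds 2 CpGs, that of *Cst9* 3, that of *Col9a3* 2 and that of *Erbb4* 12. The *Erbb4* CpGs lie mostly in its last bases, next to the start.

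H3K4me3 was found at the start of 7 of the 8 genes in Sertoli cells, against 5 in XY progenitors, 4 in XX progenitors and 4 in pregranulosa cells. Each start was examined over the transcription start site (TSS) ± 2 kb, a window of 4001 bases, and counted as marked when a region covered at least 1 base of it. Over all protein-coding genes the mark was present at 64.9% in Sertoli cells, 64.2% in XY progenitors, 66.0% in XX progenitors and 66.3% in pregranulosa cells, so with 8 genes none of these counts is far from the background. The 3 members with the mark in Sertoli and not in pregranulosa cells were *Ptgds*, *Cst9* and *Col9a3*, and the opposite was seen for 0 members. Over all genes, 1.10% had it in Sertoli and not in pregranulosa cells and 2.53% the reverse.

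From E10.5 to E13.5 the starts moved apart. In the XY lineage 2 members, *Ptgds* and *Mro*, had H3K4me3 in Sertoli cells and not in XY progenitors (2.77% of all genes), and 0 had lost it (2.06%). In the XX lineage *Mro* was the 1 gene with H3K4me3 in pregranulosa cells and not in XX progenitors (1.76%), and *Col9a3* the 1 that had lost it (1.42%). For H3K27me3, *Col9a3* was the 1 member marked in XY progenitors and not in Sertoli cells (5.21%), and 0 were newly marked (5.71%). From XX progenitors to pregranulosa cells 0 members lost H3K27me3 (4.44%) and 0 acquired it (3.29%). Between the E13.5 populations, *Col9a3* was the 1 gene with H3K27me3 in pregranulosa and not in Sertoli cells (5.01%), and 0 had the reverse (4.90%). The second time point thus set *Ptgds*, *Mro* and *Col9a3* apart from the other 5, whose marks at the start were present or absent alike before and after in both lineages.

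**Figure D1:**
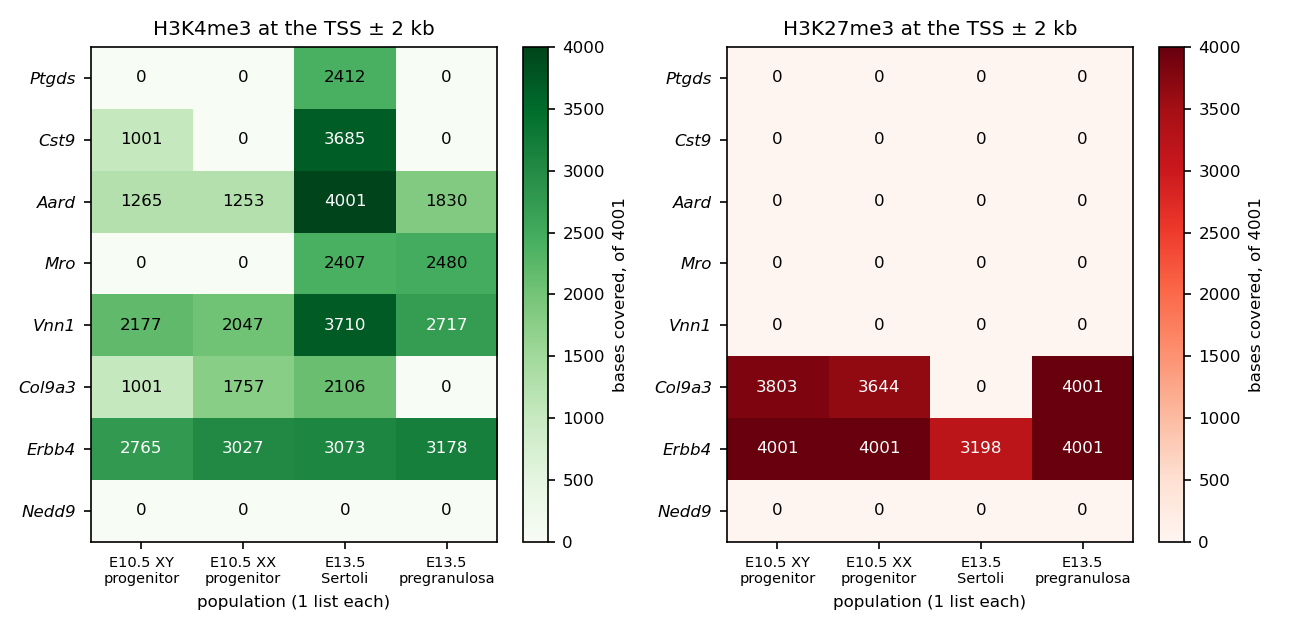
Bases of the 4001-base window around each TSS covered by H3K4me3 (left, green) and H3K27me3 (right, red), with 1 square per gene and population and the number of bases written in it. The Sertoli column of the left panel is filled for 7 of 8 genes, and the right panel is at 0 for every gene except Col9a3 and Erbb4.

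*Ptgds* (chr2:25322229-25325566, minus strand) was the member with the mark in Sertoli cells alone. The H3K4me3 bases of its window were 0 in XY progenitors, 0 in XX progenitors, 2412 in Sertoli cells and 0 in pregranulosa cells. Its Sertoli region was 3648 bp wide, ran from 411 bp upstream of the TSS to 3236 bp downstream, and thus lay over nearly the whole of this 3.34 kb gene, with 1548 of its 1649 exonic bases. In the other lists the nearest H3K4me3 region began 8.16 to 8.45 kb downstream of the TSS, at the start of *BC029214*, and that region was present in all 4 populations. Over all protein-coding genes, 0.715% had H3K4me3 at the promoter in Sertoli cells alone.

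*Cst9* (chr2:148660883-148664474, plus strand) had a narrow mark in XY progenitors that was much wider in Sertoli cells. Its window held 1001 bases of H3K4me3 in XY progenitors, 0 in XX progenitors, 3685 in Sertoli cells and 0 in pregranulosa cells. That XY progenitor region, at 1001 bp, was a single peak at the size set for the caller. The Sertoli region was 5236 bp, from 1684 bp upstream to 3551 bp downstream, and covered 647 of the 687 exonic bases of the gene. In pregranulosa cells the nearest region lay 25.2 kb upstream. *Cst9* was the member with H3K4me3 in XY and not in XX progenitors, a state of 0.970% of protein-coding promoters (2.79% had the reverse, and 0 members). The depth of the 2 lists differs, and its part was not tested.

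*Aard* (chr15:51871653-51877267, plus strand) was marked in every population, and the Sertoli region was of another size. The H3K4me3 bases of its window were 1265 in XY progenitors, 1253 in XX progenitors, 4001 in Sertoli cells and 1830 in pregranulosa cells. Its Sertoli region was 8310 bp wide, and those of the other lists were as wide as the values just given. It reached from 3557 bp upstream to 4752 bp downstream, and 0.834% of the marked promoters of the Sertoli list had a region at least as wide. Pregranulosa cells held a separate region of 1269 bp near the 3′ end of the gene, which overlapped the Sertoli region and ended 4972 bp downstream of the TSS.

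*Vnn1* (chr10:23614494-23625149, plus strand) was likewise marked throughout. Its window held 2177 bases of H3K4me3 in XY progenitors, 2047 in XX progenitors, 3710 in Sertoli cells and 2717 in pregranulosa cells. Its Sertoli region was 5097 bp (6.99% of marked promoters had one at least as wide), and the pregranulosa signal was split into regions of 2676 and 1001 bp over much of the same stretch. For *Vnn1* the E13.5 populations were thus both wider than the progenitors, with Sertoli cells the widest.

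*Mro* (chr18:74019039-74040987, plus strand) gained H3K4me3 at its start in both E13.5 populations. Its window held 0 bases in XY progenitors, 0 in XX progenitors, 2407 in Sertoli cells and 2480 in pregranulosa cells. Around this start the 2 E13.5 populations were therefore alike in extent. Within the gene, Sertoli cells had 2 regions, 1 of 5754 bp over the start and 1 of 1001 bp that began 12.7 kb downstream and overlapped no other population, and pregranulosa cells had 4 regions, of 1001 to 2480 bp.

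*Mro* has a further annotated start inside the gene, 4287 bp downstream of the first. The progenitors had H3K4me3 there, in regions of 1001 bp (XY) and 1510 bp (XX). They also had H3K27me3 there, in 1 region of 5001 bp each, from 3115 to 8115 bp downstream of the TSS in XY and from 2991 to 7991 bp in XX progenitors. All of the progenitor H3K4me3 in *Mro*, 1001 and 1510 bases, lay under H3K27me3. At E13.5 the gene held 0 bases of H3K27me3 in Sertoli cells and 0 in pregranulosa cells, and both populations kept H3K4me3 over the internal start. The bivalent state of *Mro* at E10.5 thus sat at the internal start, outside the window of the first one. By E13.5 no H3K27me3 region was called there in either lineage. Both progenitor H3K27me3 regions and the XY progenitor H3K4me3 region were single peaks at the size set for the caller, so this state rests on regions that are narrow for their lists.

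**Figure D2:**
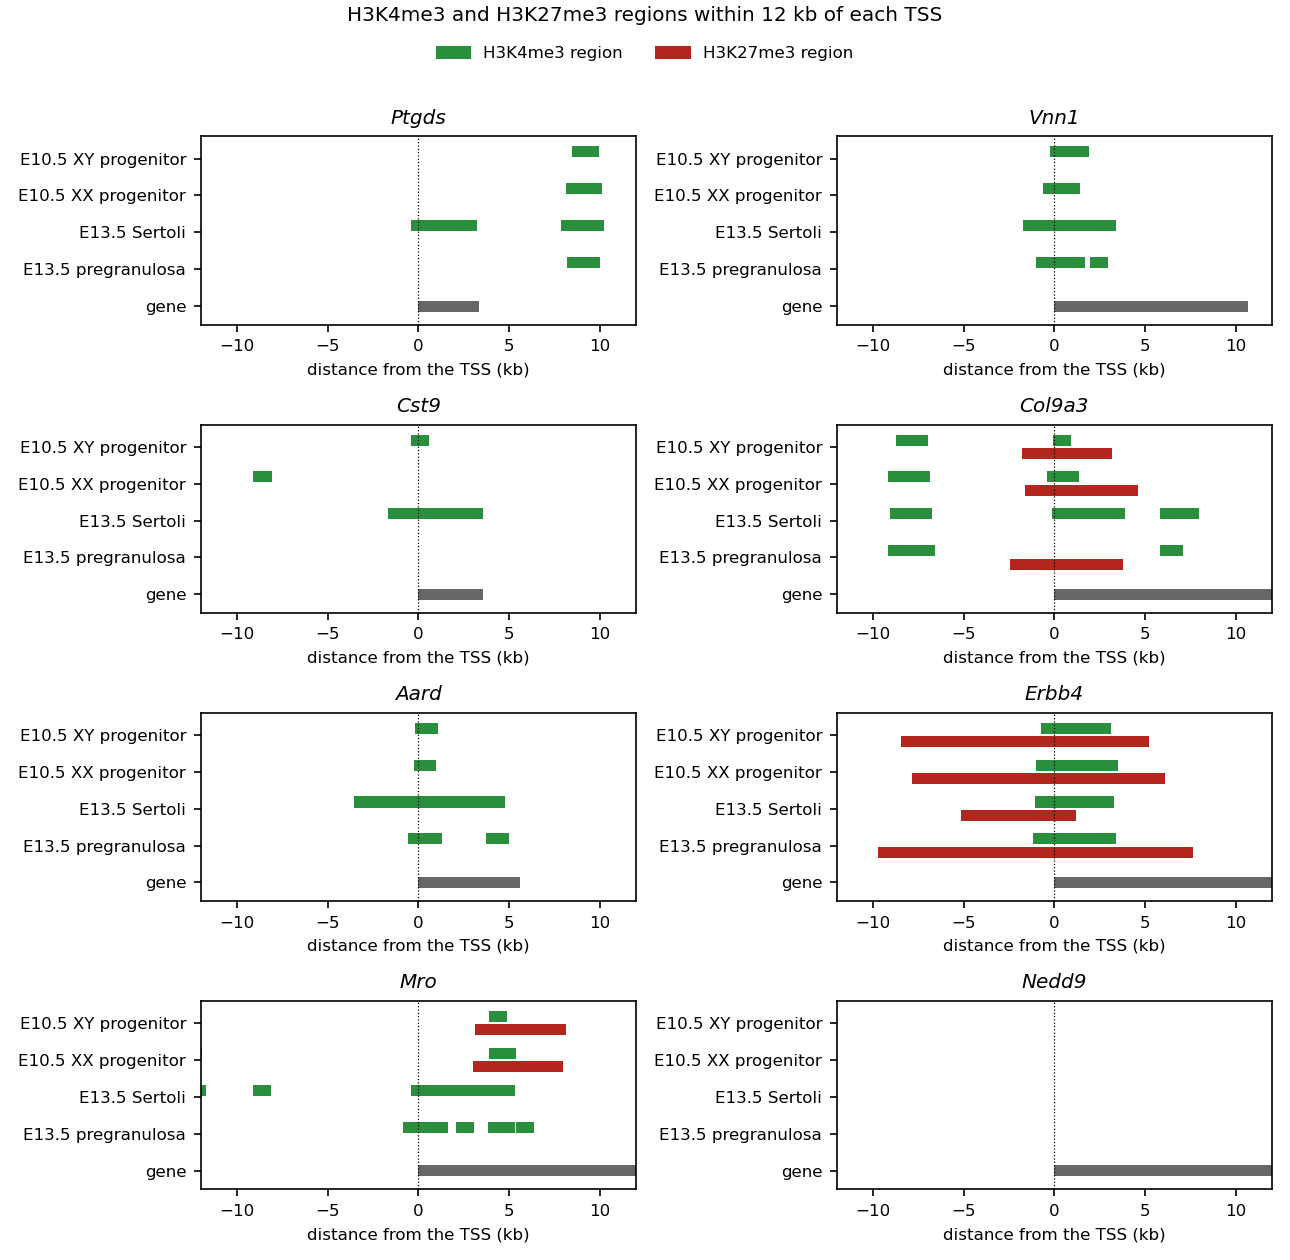
H3K4me3 (green) and H3K27me3 (red) regions within 12 kb of the TSS of each gene, with distance from the TSS in kb on the x axis, downstream to the right, 1 row per population and the gene as a grey bar. The Sertoli rows of Ptgds, Cst9, Aard and Vnn1 hold the widest green bar of their panel, Mro carries red only in the progenitors and inside the gene, and Nedd9 has no region in this span.

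*Col9a3* (chr2:180332495-180356894, plus strand) was the member whose promoter parted in opposite directions in the 2 lineages. Its window held 3803 bases of H3K27me3 in XY progenitors, 3644 in XX progenitors, 0 in Sertoli cells and 4001 in pregranulosa cells. For H3K4me3 the bases of the same window were 1001, 1757, 2106 and 0 in the same order. The promoter was bivalent in both progenitors, carried H3K4me3 alone in Sertoli cells and carried H3K27me3 alone in pregranulosa cells. In the progenitors every H3K4me3 base of the window, 1001 and 1757, was also under H3K27me3. The Sertoli H3K4me3 region was 4014 bp, and a second one of 2187 bp began 5.81 kb downstream. Pregranulosa cells had a region of 1291 bp at that second site, which no progenitor list held. H3K27me3 at the promoter in all populations but Sertoli cells was found for 1.69% of protein-coding genes. The H3K27me3 regions were 5001 bp in XY progenitors, 6253 bp in XX progenitors and 6255 bp in pregranulosa cells. The XY progenitor regions of both marks at this gene were single peaks at the size set for the caller. With the widest 75% of the regions of each list kept, no H3K27me3 region was left at *Col9a3*, and 0 members differed in H3K27me3 between Sertoli cells and XY progenitors or pregranulosa cells. With each list reduced to the length of the shortest of its mark, the pregranulosa H3K27me3 call at *Col9a3* was lost, while those of both progenitors stayed.

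*Erbb4* (chr1:68078760-69154633, minus strand, a gene of 1075874 bp) was bivalent in all 4 populations. With each list reduced to the length of the shortest of its mark, the Sertoli H3K27me3 call at *Erbb4* was lost (0 members left with it). Its window held 2765 bases of H3K4me3 in XY progenitors, 3027 in XX progenitors, 3073 in Sertoli cells and 3178 in pregranulosa cells. Its H3K27me3 bases were 4001 in each list except that of Sertoli cells, which had 3198. The difference was plainer in the whole region than in the window. H3K27me3 at the TSS was 13643 bp wide in XY progenitors, 13931 bp in XX progenitors, 6348 bp in Sertoli cells and 17367 bp in pregranulosa cells. In Sertoli cells it ended 1197 bp downstream of the TSS, against 5200, 6098 and 7658 bp in the other lists. The H3K27me3 bases within *Erbb4* were 17835, 18592, 1198 and 16591 in the order above. In the progenitors they included a second region of 12634 bp (XY) and 12493 bp (XX), about 312 kb into the gene and intronic, which neither E13.5 list held. Pregranulosa cells had another intronic region of 8932 bp, 155 kb into the gene, that overlapped no other list. The Sertoli H3K27me3 list was the deepest of those with a known depth, and whether depth bears on the narrower region was not tested.

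*Nedd9* (chr13:41405285-41582689, minus strand) had neither mark at its annotated 5′ end in any list, and its nearest H3K4me3 region there lay 23.4 to 28.6 kb away. The gene has 4 annotated starts, and the mark sat at another of them, 128 kb into the gene. The 4001 bases around that start held 2655 bases of H3K4me3 in XY progenitors, 3510 in XX progenitors, 4001 in Sertoli cells and 3779 in pregranulosa cells. Counted at this start, *Nedd9* was marked in every population, so its absence from the counts above is a property of the annotated end. In every list the region over this start also held an annotated start of *Gm17260*. Which gene the mark belongs to was not tested. No H3K27me3 was found in *Nedd9* in any list.

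Sertoli cells had 14 separate H3K4me3 regions within *Nedd9*, against 6 in XY progenitors, 5 in XX progenitors and 7 in pregranulosa cells. Its widest Sertoli region, of 8604 bp, held the start 128 kb into the gene and also the one at 133 kb. Of the 14 regions, 8 overlapped no region of another population and added up to 15035 bp. Over the whole Sertoli list 19.4% of H3K4me3 regions overlapped no other population. Of the Sertoli regions 10 lay 125 kb or more from the 5′ end, with 28192 bp in all. Past the same limit XY progenitors had 3 regions and 4219 bp, XX progenitors 2 and 4761 bp and pregranulosa cells 3 and 9880 bp. The limit was set at the 5′ edge of the widest Sertoli region, so it was taken from the Sertoli list itself. In Sertoli cells 13 of the 14 regions were intronic, and 1 touched exons.

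**Figure D3:**
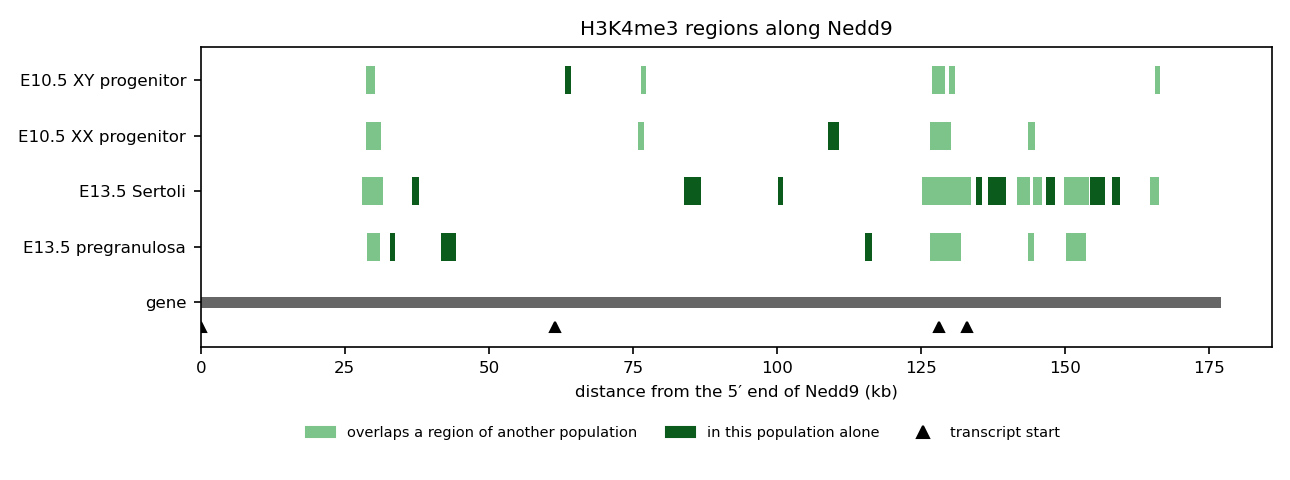
H3K4me3 regions along the gene Nedd9, with distance from its 5′ end in kb on the x axis, 1 row per population, dark green for regions that overlap none of another population, a grey bar for the gene and triangles for its 4 annotated starts. The Sertoli row holds 14 regions, 8 of them dark. Of the 14 regions, 10 lie between 125 and 166 kb, over the starts 128 and 133 kb into the gene and beyond them.

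Within the annotated ends of the genes, H3K4me3 was found in 7 members in XY progenitors, 6 in XX progenitors, 8 in Sertoli cells and 6 in pregranulosa cells (68.7%, 70.1%, 69.4% and 70.8% of all genes), and H3K27me3 in 3, 3, 1 and 2 (25.5%, 27.3%, 26.4% and 26.6%). Sertoli cells had the most H3K4me3 of the 4 populations at all 8 members. This was the case for 14.1% of all protein-coding genes, and for 19.1% of the 16555 that had the mark in the gene in any list. In the window of the TSS, Sertoli cells had the most at 5 of the 7 members with the mark there in any list (15.1% of the 15499 such genes), with pregranulosa cells higher at *Mro* and *Erbb4*. The XX progenitor and pregranulosa lists cover more of the genome (89.0 and 89.4 Mb) than the Sertoli list (75.2 Mb), and over all genes more had their widest coverage in those lists than in Sertoli cells, both for CpG-rich promoters (32.6% and 34.6% against 19.9%) and for the others (33.8% and 32.6% against 17.8%). Those shares are of genes with the mark in any list. XY progenitors, with 62.4 Mb covered, were the shallowest of the 3 lists of known depth. Sertoli cells exceeded them at all 8 members and at 45.6% of all genes.

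The size of this difference varied. *Ptgds* had 3237 H3K4me3 bases in the gene in Sertoli cells and 0 in each other list. *Cst9* had 596, 0, 3552 and 0 bases in XY progenitors, XX progenitors, Sertoli cells and pregranulosa cells, a Sertoli value 5.96 times the next. *Col9a3* had 904, 1372, 6096 and 1291 bases, 4.44 times the next. *Nedd9* had 7683, 10342, 37101 and 17198 bases, 2.16 times the next, and *Aard* had 1105, 986, 4753 and 2547 bases, 1.87 times the next.

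For the remaining 3 genes the E13.5 populations were close. *Vnn1* had 1932, 1426, 3388 and 2676 bases, 1.27 times the next. *Mro* had 1001, 1510, 6349 and 5135 bases, 1.24 times the next. *Erbb4* had 6128, 7737, 10618 and 8935 bases, 1.19 times the next. Where regions within 1 kb were joined, *Mro* held 6349 bases in Sertoli cells and 6363 in pregranulosa cells, so its place among the 8 turned on how gaps were treated. Pregranulosa cells exceeded XX progenitors at 5 of the 8 genes (35.9% of all genes), and these were *Aard*, *Mro*, *Vnn1*, *Erbb4* and *Nedd9*.

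**Figure D4:**
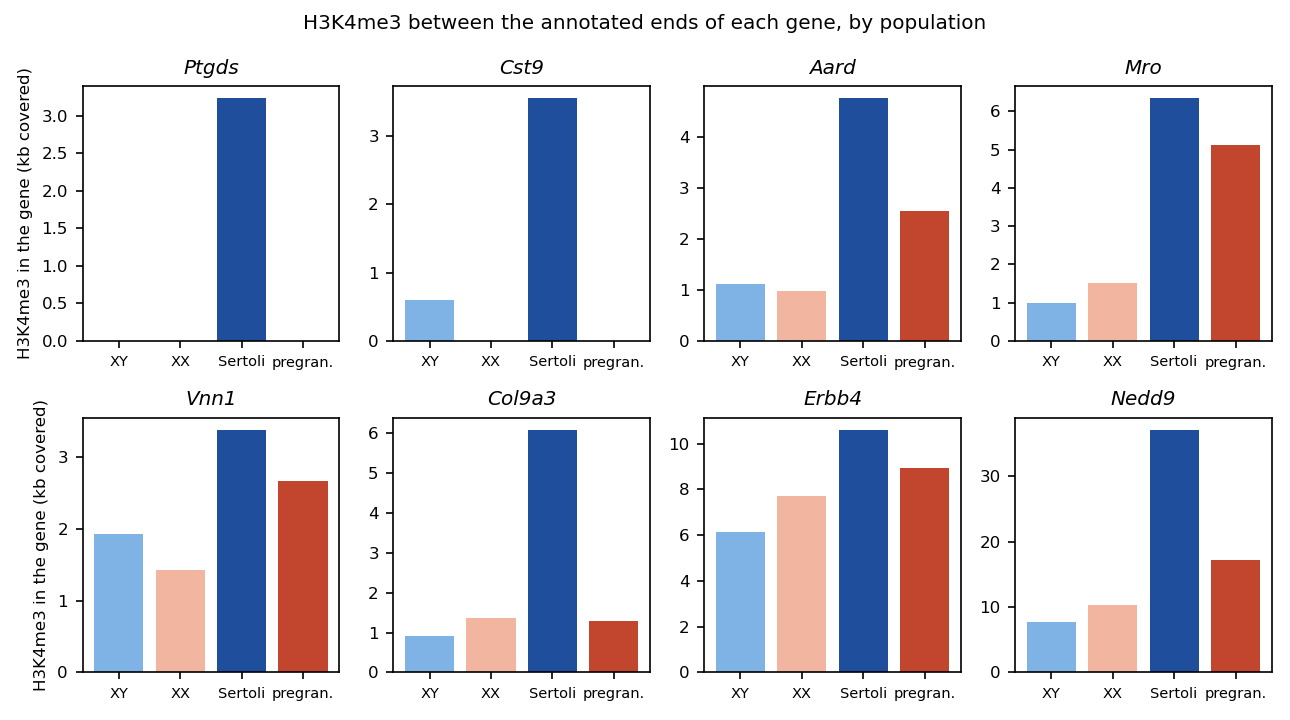
Kilobases of H3K4me3 between the annotated ends of each gene, 1 bar per population (E10.5 XY and XX progenitors, E13.5 Sertoli and pregranulosa cells), each panel with its own scale from 0 and no error bars because each bar is 1 list. The Sertoli bar is the highest in all 8 panels, with the pregranulosa bar near it for Mro, Vnn1 and Erbb4 and at 0 for Ptgds and Cst9.

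H3K27me3 at the start was no rarer or more common among the members than elsewhere. It was at the start of 2 in XY progenitors, 2 in XX progenitors, 1 in Sertoli cells and 2 in pregranulosa cells (23.0%, 24.8%, 23.5% and 23.7% of all protein-coding genes). With 8 genes these counts are near what those shares give. The 6 without it in any population were *Ptgds*, *Cst9*, *Aard*, *Mro*, *Vnn1* and *Nedd9*, and 67.1% of all genes were in that state. Both marks at the start were found for 2 members in each progenitor list and for 1, *Erbb4*, in each E13.5 list, beside 20.4% (XY), 22.4% (XX), 18.7% (Sertoli) and 20.4% (pregranulosa) of all genes. *Ptgds*, with H3K4me3 in Sertoli cells alone, and *Cst9*, with a wider region there than in XY progenitors, were both among the 6.

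The CpG content of the promoters divided the members. It was taken as CpG observed over expected, the number of CpGs relative to that given by the C and G content, in the TSS ± 500 bp. It was 0.83 at *Aard* and 0.80 at *Erbb4*, the members that met both limits for a CpG-rich promoter (a ratio of at least 0.6 and at least 50% GC). The others had 0.12 (*Ptgds*), 0.17 (*Cst9*), 0.18 (*Mro*), 0.26 (*Nedd9*), 0.41 (*Vnn1*) and 0.44 (*Col9a3*). The median of all protein-coding genes was 0.55, and 44.2% were CpG-rich. *Ptgds*, with 10 CpGs in 1001 bases, was lower than all but 10.6% of protein-coding genes.

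**Figure D5:**
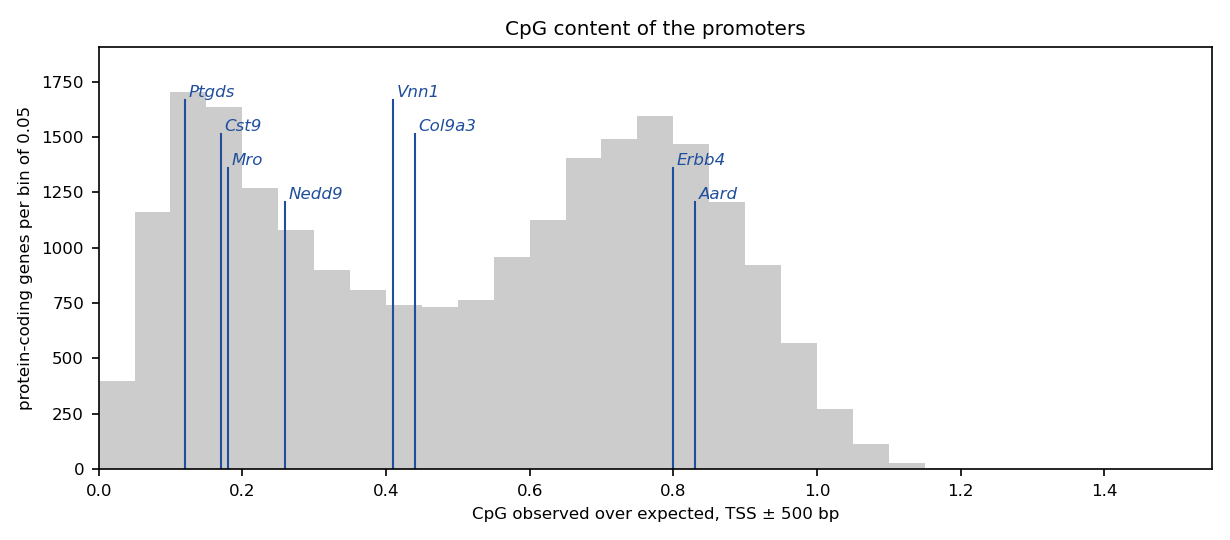
Histogram of CpG observed over expected in the TSS ± 500 bp of protein-coding genes (grey, bins of 0.05), with each of the 8 genes as a blue line whose height carries no meaning. Erbb4 and Aard fall in the right-hand, CpG-rich group, Ptgds, Cst9, Mro and Nedd9 in the left-hand group, and Vnn1 and Col9a3 between them.

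Over all genes, CpG content went with the marks. In Sertoli cells the median ratio was 0.17 for promoters with neither mark, 0.74 with H3K4me3 only, 0.65 with both and 0.24 with H3K27me3 only. Of CpG-rich promoters 99.3% had H3K4me3 in Sertoli cells, and of the others 37.7% had it. *Ptgds*, *Cst9*, *Mro*, *Vnn1* and *Col9a3* were not CpG-rich and were among that 37.7%. *Nedd9* was not CpG-rich either and was not among them. *Col9a3*, at 0.44 and 2 CpGs in the printed 250 bases, was bivalent in the progenitors as were 14.4% (XY) and 16.7% (XX) of the promoters that were not CpG-rich.

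The 250 upstream bases were also searched on both strands for 4 short motifs of factors known in the gonad or of general use, in the 7 members other than *Mro*, whose motifs were not analysed here. The SOX core AACAAT was in 1 (*Erbb4*) and in 9.13% of all protein-coding promoters of that length. The GATA motif AGATAA was in 2 (*Ptgds* and *Aard*) and in 9.33% of all. The SF1 motif AAGGTCA was in 0 members and in 3.41% of all, and the TATA box TATAAA was in 0 and in 12.3%. The motifs were counted as letters, and a match or its lack says nothing of binding.

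Genes whose promoters were covered most like those of the members were sought among all protein-coding genes, by the mean absolute difference in the covered share of the window over the 8 lists. For *Ptgds* these were *Cp*, which encodes ceruloplasmin (0.603 percentage points), and *Hsd17b3*, which encodes a testosterone-making enzyme of the fetal Sertoli cell (0.900). *Hsd17b3* had 2700 bases of H3K4me3 in Sertoli cells and 0 in each other list, and *Cp* had 2605 and 0. For *Cst9* they were *Spp1*, which encodes osteopontin (4.98), and *Xaf1* (5.11).

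For *Aard* they were *Slc26a7*, which encodes an anion transporter (3.55), and *Gstm7* (4.19). For *Mro* they were *Pnrc1* (0.459) and *Nr0b2*, which encodes an orphan nuclear receptor (1.03), and for *Vnn1* they were *Aph1b*, a subunit of gamma-secretase (1.57), and *Fam198b* (2.18). For *Col9a3* they were *Vwa1*, which encodes a matrix protein (7.39), and *Slc29a1*, which encodes a nucleoside transporter (7.64). Both had H3K27me3 over all 4001 bases except in Sertoli cells, with 0, but unlike *Col9a3* kept H3K4me3 in pregranulosa cells (1255 and 1462 bases). For *Erbb4* they were *Lgr5*, the R-spondin receptor gene (2.67), and *2810032G03Rik* (2.91). *Nedd9* had no mark in its window to match.

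The relatives of the members gave a measure of how far a state was shared within a family. Collagen IX was the closest case. *Col9a2*, another chain of the same collagen, held 4001 bases of H3K27me3 in XY progenitors, XX progenitors and pregranulosa cells and 0 in Sertoli cells, as *Col9a3* did, but with H3K4me3 in all lists (2329, 2516, 2431 and 2882 bases). *Col9a1* had neither mark in any list, and *Col2a1*, the cartilage collagen, kept 4001 bases of H3K27me3 in every list.

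Of the 7 ERBB receptors and neuregulins other than *Erbb4*, 6 had H3K27me3 at the start in each progenitor list, 5 in Sertoli cells and 6 in pregranulosa cells. *Erbb3*, which encodes a neuregulin receptor that pairs with the others, held 4001 bases of H3K27me3 in each list except 0 in Sertoli cells. *Egfr* and *Nrg1* held 4001 in every list, and *Erbb2* held 0 in every list.

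The other families carried little H3K27me3 or moved otherwise. None of 6 cystatin genes near *Cst9* had it in any list, and their H3K4me3 was found at 2, 3, 4 and 4 starts in XY progenitors, XX progenitors, Sertoli cells and pregranulosa cells. Of the 4 named by the rule, *Cst11* and *Cst13* had neither mark. *Cst12* had H3K4me3 of 1001 bases in Sertoli cells and 2228 in pregranulosa cells, so the Sertoli side of *Cst9* was not shared by it. *Cst3*, the widely expressed cystatin C gene, had 2152 to 3055 bases of H3K4me3 in every list. *Vnn3*, next of kin to *Vnn1*, had neither mark in any list.

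Over the whole Sertoli list 32.2% of H3K27me3 regions overlapped no other population, against 10.7% to 17.9% in the other lists. Of the CAS family, *Cass4* and *Efs* had H3K27me3 in Sertoli cells alone (4001 and 3286 bases), and *Bcar1*, the best-known member, had H3K4me3 alone in every list. In the prostaglandin D2 pathway, *Ptgs1*, the cyclooxygenase 1 gene, had 4001 bases of H3K27me3 in Sertoli cells and 0 in the other lists. *Gpr44*, a prostaglandin D2 receptor gene, had 2343 in Sertoli cells and 1478 in pregranulosa cells and 0 in the progenitors. *Ptgs2*, the cyclooxygenase 2 gene, had 3508 to 4001 in every list. *Hpgds*, the other prostaglandin D2 synthase gene, had no H3K27me3 and had 1001 bases of H3K4me3 in each progenitor list and 0 at E13.5. Those 1001 bases are the extent of a single peak at the size set for the caller.

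A mixed list of 18 other Sertoli cell genes is set beside the effector genes here. It holds regulators and hormones, and also products such as *Cldn11*, *Clu* and *Hsd17b3*. H3K27me3 was at the start of 13 in XY progenitors, 14 in XX progenitors, 3 in Sertoli cells and 15 in pregranulosa cells. In the XY and XX progenitors 11 and 13 were bivalent. Those without H3K27me3 in XY progenitors were *Amh*, *Inha*, *Cldn11*, *Clu* and *Hsd17b3*, so the counts do not set regulators alone against effectors. *Dhh*, *Dmrt1* and *Etv5* each held 4001 bases in the lists other than Sertoli cells and 0 there, and *Fgf9* held 4001, 3044, 0 and 4001. Of the 8 effector genes, *Col9a3* alone had this pattern. The 2 sets were chosen with results of these data known, so the difference is a description.

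Of 8 pregranulosa genes, 7, 7, 8 and 5 had H3K27me3 in the same order of lists, and *Bmp2*, *Rspo1* and *Wnt4* held 4001 bases in Sertoli cells and 0 in pregranulosa cells, while *Runx1* held 4001 and 1091. Of 6 early gonad factors, 5, 6, 3 and 1 had it. *Lhx9* held 4001 bases in each list except 0 in pregranulosa cells, *Emx2* held 525 in Sertoli cells and 0 in pregranulosa cells, *Cbx2* held 3243 and 2665, and *Gata4* held 0 in both after 4001 in each progenitor list.

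The labelled identities were checked on marker genes. *Sox9*, *Amh* and *Dhh* had H3K4me3 and no H3K27me3 in Sertoli cells, and *Amh* H3K4me3 covered 150, 664, 3294 and 944 bases. *Sox9* and *Dhh* had H3K4me3 in every list, so its presence did not separate the populations there. Their H3K27me3 did, with 4001 bases in each list except that of Sertoli cells. *Amh* had no H3K27me3 in either progenitor list and 725 bases in pregranulosa cells. Of 4 pregranulosa markers, 2 (*Wnt4* and *Rspo1*) had lost H3K27me3 in pregranulosa cells and 4 kept it in Sertoli cells. *Fst* held 1284 bases of it in pregranulosa cells. *Foxl2* held 4001 in both populations, so H3K27me3 in its window did not separate them. The defining markers *Ddx4* (germ cells), *Pecam1* and *Tek* (endothelium) and *Ptprc* (blood) had 0 bases of H3K4me3 in every list. The germ cell markers *Pou5f1* and *Dppa3* had 1001 and 1561 bases in Sertoli cells, both with H3K27me3, and 0 and 1254 bases in pregranulosa cells. *Dppa3* held 0 bases of H3K27me3 in pregranulosa cells, against 4001 in each other list, so its H3K4me3 stood alone there. Among Leydig cell genes, *Cyp11a1* had 0 bases in both E13.5 lists, and *Star* had 1765 in Sertoli and 2339 in pregranulosa cells. Any part of other cells in the regions above was not tested.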

How the data were processed

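ChIP-seq for H3, H3K4me3 and H3K27me3 had 24 samples, 2 for each ChIP and population. The labels name mm9, Trim Galore, Bowtie, SAMtools and HOMER. Per the file headers, the authors called peaks in the HOMER histone style against H3 input, with sizes of 1000 (H3K4me3) and 5000 (H3K27me3), a minimum of 4-fold above both input and flanking signal, and a Poisson limit of 0.0001. The deposited score column was the same for every peak and was not used, so the values are positions. The series states that both replicates entered each list, while the study's methods describe peak calling on each replicate. The headers of 4 lists name a joined tag directory, those of the 2 Sertoli lists do not, and the 2 pregranulosa lists have no header. Which of these holds for the 2 Sertoli and 2 pregranulosa lists was not settled. Pregranulosa H3K27me3 peaks do not overlap each other (median 8910 bp), unlike the others (5001 bp).

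Overlapping peaks of a list were joined into regions. Covered bases were counted in the window of each TSS (the 5′ end of the GENCODE M1 gene, NCBIM37) and between gene ends, with Python 3.11.15 and, for figures, matplotlib 3.10.9. The counting was tested on simulated regions. Sequence came from NCBIM37, for 22355 of 22367 protein-coding genes. The members and the lists beside them were chosen with earlier results of these data known. At most 4 genes of a list were named, by the largest difference in H3K27me3 bases between Sertoli and pregranulosa cells (ties by symbol, lists of up to 3 whole), and for each member the 2 genes nearest in covered share. Marker genes were named after their values were seen. Alternatives changed the overlap, window, starts, list length, joining and gene set.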

Additional observations from a re-analysis of the deposited data

Results flagged for a closer look

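*Col9a3*, the collagen IX gene, had values that moved in opposite directions in the XY and the XX lineage between E10.5 and E13.5. The H3K4me3 bases of its window differed by 1105 between Sertoli cells and XY progenitors (2106 against 1001) and by -1757 between pregranulosa cells and XX progenitors (0 against 1757). The H3K27me3 bases of the same window differed by -3803 (0 against 3803) and by 357 (4001 against 3644). The H3K4me3 bases within the gene differed by 5192 (6096 against 904) and by -81 (1291 against 1372). Each population is 1 list, so the difference between the lineages was not tested. The depth of the lists also differs along this comparison, at 10162534 tags in XY progenitors and 31104760 in Sertoli cells for H3K4me3, and its part was not tested.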

How the results depend on the processing

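The counts of members were recomputed under other settings, and 124 of 148 combinations of a count and a setting stayed within 1.5 times the reported value, 108 of them equal. No combination with an overlap of at least 500 bp, a window of TSS ± 1 kb or regions within 1 kb joined moved further than that. In the TSS ± 5 kb, H3K27me3 differed between XX progenitors and pregranulosa cells at 1 gene and between XY progenitors and Sertoli cells at 2, and H3K4me3 differed at 1 gene in each comparison. With any annotated start, which brings in the starts inside *Mro* and *Nedd9*, the H3K27me3 counts were 1 and 2, the H3K4me3 counts 0 (XX progenitors against pregranulosa cells) and 1 (XY progenitors against Sertoli cells), and 2 genes had both marks in pregranulosa cells. With the widest 75% of regions, H3K27me3 was left at 1 gene in XY progenitors, XX progenitors and pregranulosa cells, differed at 0 genes between XY progenitors and Sertoli cells and at 0 between pregranulosa and Sertoli cells, both marks were left at 1 in each progenitor list, H3K4me3 was left at 3 in XY progenitors and differed at 4 from Sertoli cells. So the *Col9a3* difference in H3K27me3 rests on regions that are narrow for their lists. With each list reduced to the length of the shortest of its mark, H3K27me3 and both marks were at 0 genes in Sertoli cells. H3K27me3 was then at 1 in pregranulosa cells (*Erbb4*), the call at *Col9a3* being lost. It differed at 2 genes from XY progenitors to Sertoli cells and at 1 (*Col9a3*) from XX progenitors to pregranulosa cells. Without the first 2 kb, 4 genes had either mark in the gene in XY progenitors.

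The number of genes with the most H3K4me3 in Sertoli cells, with alternatives chosen after seeing the data, was 8 in the widest 75% of regions, in lists of equal length, without the first 2 kb and with 2 kb added on each side, and 7 with regions within 1 kb joined (14.1% of all genes). Among all annotated genes the background shares differed by up to 20.2 percentage points, and among autosomal ones they changed by up to 2.45. No paired analysis was possible because there is 1 list for each mark and population, with no list per replicate, and leaving out a replicate was not possible for the same reason. Region presence depends on depth, which is unknown for pregranulosa cells, so a missing region says only that none was called.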
